A study of Mus musculus with 12 samples.

Results

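Integrins are the receptors by which cells hold on to the matrix and to each other, and laminins are matrix proteins of the basement membrane that several of them bind. The genes were chosen by symbol, as every alpha or beta integrin subunit and every laminin alpha, beta or gamma chain that gives its name to a peak of N6-methyladenosine (m6A) in RNA. Their names stood on 42 of 27292 peaks in the list of mice with ovalbumin (OVA) asthma and on 42 of 26102 peaks in the list of control mice (PBS). These peaks carried 23 of the 14118 gene names of the OVA list, 22 of the 13564 names of the PBS list and 24 of the 15332 names of both lists together. RefSeq places 37 genes of both families on the mouse genome.

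Female BALB/c mice aged 6 to 8 weeks were used. OVA mice were injected with ovalbumin and aluminum hydroxide on day 0 and day 7 and breathed an aerosol of 3% ovalbumin for 30 min a day from day 14 to day 20. PBS mice received the buffer alone by both routes on the same days, and lung was taken after the last challenge, on day 21. From 3 mice of each group, fragments of total RNA without ribosomal RNA were pulled down with an m6A antibody (6 IP libraries) or sequenced without it (6 input libraries), and the authors deposited 1 list of peaks for each group. Whole lung holds many kinds of cell, so fewer cells of a type and less RNA per cell cannot be told apart in any value given here. The lists hold no values of single mice and no read counts, so no difference between them was tested.

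An integrin is a pair of an alpha and a beta subunit, and the pair decides whether it binds collagen, laminin, the RGD sequence of fibronectin and its relatives, or receptors on other cells. A laminin is a trimer of an alpha, a beta and a gamma chain that forms the sheet under epithelium and endothelium and around smooth muscle. In the lung these proteins hold epithelium to its basement membrane, activate latent TGF-beta and let leukocytes leave the blood and settle in the airway wall.

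The name on a peak did not always give the gene that the peak lies in. Each peak has a name, that of the gene whose transcript starts nearest, and an identifier, that of the gene on which the peak was called. Of the 42 named peaks, 28 with OVA and 28 with PBS were called on the gene they were named for. The other 14 of each list, 33.3% (95% Wilson interval 21 to 48.4), were called on another gene, against 23.7% of all OVA peaks and 24.0% of all PBS peaks. Another 13 OVA and 10 PBS peaks were called on an integrin or laminin gene and named for a neighbour. Counted by called gene, there were 41 OVA peaks on 25 genes and 38 PBS peaks on 23 genes. Counts by called gene stand beside those by name for the main shares, and a peak is described with the gene on which it was called. Values with OVA or with PBS are those of the list of that group, and of a pair of values the OVA value comes first.

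The clearest cases were Itga2b, Itgae, Itgb4 and Itgb7, none of which had a peak of its own in either list. Itga2b encodes the platelet receptor subunit for fibrinogen and had the most named peaks, 5 in each list. All 5 were called on Gpatch8, a neighbour on the same strand of chromosome 11, and lay between 6931 and 10735 bp outside Itga2b (GRCm38). Fold enrichment, the ratio of IP over input, was 4.13 with a log10 p of -55.7 for the OVA peak at chr11:102476903-102477203 in the 3′ UTR, and 4.5 with -75.5 for its PBS partner. The next, at chr11:102478102-102478371 in the 3′ UTR, had 2.42 and -33.7 with OVA and 2.54 and -31.6 with PBS. Then came 3 peaks on exon 8 of 8, beginning with chr11:102478671-102479689, which had 7.32 and -158 with OVA and 6.62 and -166 with PBS. That pair was higher than the median fold enrichment of all peaks of its list, 5.59 for OVA and 5.44 for PBS. At chr11:102479959-102480408 they were 3.18 and -36.6 with OVA and 2.66 and -38.5 with PBS. At chr11:102480618-102482085 they were 6.69 and -123 with OVA and 8.39 and -160 with PBS. Each of the 5 OVA peaks overlapped 1 of the PBS peaks, and the same peaks stood high and low in both lists.

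Itgae encodes the alpha subunit that holds T cells and dendritic cells to epithelial cadherin. All 3 of its named peaks in each list were called on Ncbp3, a gene of a cap-binding protein upstream of it, with fold enrichments between 1.68 and 3.14. A nested gene, Haspin, a histone kinase, did have peaks inside the Itgae span, named for Haspin itself, at a fold enrichment of 18.5 and 8.21 with OVA and 5.03 with PBS. Itgb4, the laminin receptor subunit of hemidesmosomes, lent its name to 1 of the peaks with the highest fold enrichments among the named peaks. That peak, at chr11:115963971-115964901 in the OVA list, was called on Sap30bp and annotated as 3′ UTR, with a fold enrichment of 33.2 and a log10 p of -552. Its PBS partner, at chr11:115964214-115964871, had a fold enrichment of 29.4 and a log10 p of -602. The only peak named for Itgb7, the beta subunit of gut-homing integrin, was called on Rarg, a retinoic acid receptor, at 2.59 with OVA and 2.52 with PBS.

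Taken by name, the peaks of the family had lower fold enrichments than the bulk of each list. The median fold enrichment of the named peaks was 3.19 in the OVA list (95% order-statistic interval 2.73 to 5.08) and 3.38 in the PBS list (2.52 to 5.02). Over all peaks the median was 5.59 with OVA and 5.44 with PBS. Counted by called gene, the family's medians were 4.05 (2.87 to 7.19) and 4.88 (2.77 to 9.48), intervals that hold the median of all peaks. Of the named peaks, 61.9% (46.8 to 75) of the OVA list and 54.8% (39.9 to 68.8) of the PBS list were annotated as 3′ UTR, beside 52.7% of all peaks in either list. Named peaks annotated as 5′ UTR were 5 with OVA and 9 with PBS, 11.9% (5.19 to 25.0) and 21.4% (11.7 to 35.9), beside 11.6% and 11.4% of all peaks. By called gene the 3′ UTR shares were 68.3% (53.0 to 80.4) and 63.2% (47.3 to 76.6), and the 5′ UTR shares 12.2% (5.32 to 25.5) and 23.7% (13.0 to 39.2).

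Along the gene, peaks called on the family lay mostly at the 3′ end, with a smaller group at the 5′ end. Of those that could be placed on a RefSeq gene with a known strand, 25 of 39 with OVA and 24 of 37 with PBS had their midpoint in the last 10% of the gene. These are 64.1% (48.4 to 77.3) and 64.9% (48.8 to 78.2), against 42.6% and 43.1% of all peaks. Placed at the first 10% of the gene were 15.4% (7.25 to 29.7) of the OVA peaks and 24.3% (13.4 to 40.1) of the PBS peaks, against 9.90% and 10% of all peaks. In each list the family's share counts the Lamb3 peak named for Gm37650. That peak overlaps the gene, but its midpoint lies upstream of it, at -14.0% of the gene's length. Introns count in these lengths, and the family's genes were up to 635907 bp long (Lama2). The named peaks had a median exonic width of 301 bp in the OVA list and 300 bp in the PBS list, beside 329 and 327 bp for all peaks, and 26.2% and 23.8% ran over more than 1 exonic block, beside 24.1% and 21.4%. The assigned transcript was protein-coding for 42.9% and 38.1% of the named peaks, beside 41.8% and 42.5% of all peaks.

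**Figure D1:**
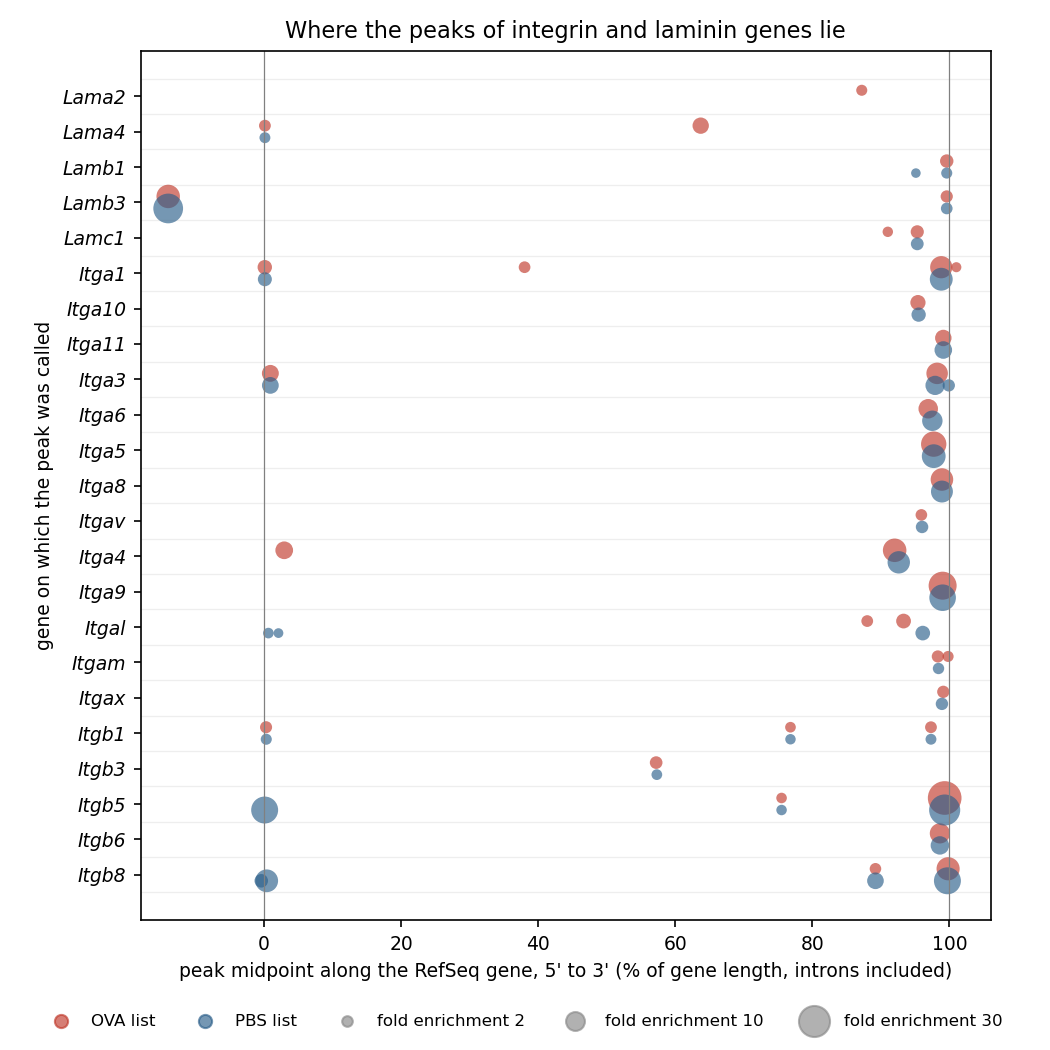
Midpoints of the peaks called on integrin and laminin genes along each RefSeq gene, from 0 at the 5′ end to 100% at the 3′ end with introns included, with red points for OVA, blue points for PBS and point size for fold enrichment. Not every gene with a peak is drawn, and most of those drawn have their points at the right edge.

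Of the 42 named OVA peaks, 35 shared at least 1 bp of exon with a PBS peak and 7 did not, a share without overlap of 16.7% (8.32 to 30.6) beside a background of 19.4%. Of the 42 named PBS peaks, 8 had no overlapping OVA peak, 19.0% (9.98 to 33.3) beside a background of 14.5%. By called gene, 10 of 41 OVA peaks, 24.4% (13.8 to 39.3), and 6 of 38 PBS peaks, 15.8% (7.44 to 30.4), had no overlap. All 4 intervals hold the share of all peaks. By name, Itga4 and Lama2 had peaks in the OVA list only, 2 of 24 names beside a background of 11.5%. Lamc3 had a peak in the PBS list only, 1 of 24 names beside a background of 7.92%. By called gene, Lama2 and Itgb2 had peaks in the OVA list only, 2 of 25 genes beside a background of 10.8%, and 0 of 25 genes had peaks in the PBS list only, beside a background of 7.20%. A gene without a peak is not shown to lack methylation, since a peak also needs enough RNA.

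Fold enrichments of overlapping peaks were close between the lists. Over the 35 matched pairs of named peaks, the OVA value divided by the PBS value had a median of 1.08 (1.01 to 1.15), the same as the 1.08 of all 22006 matched pairs. In 31 of the 35 pairs, 88.6%, the lists differed by less than 1.5-fold, beside 69.2% of all pairs. No pair was at least 2 times higher in the OVA list (0 of 35, beside a background of 7.63%), and 1 pair, in Itgb8, was at least 2 times higher in the PBS list (background 6.79%). By called gene, the median of 31 pairs was 1.09 (1.02 to 1.18), with the same Itgb8 pair past 2-fold. The values of the named pairs lay between 0.361 for Itgb8 and 1.80 for Lamb1.

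**Figure D2:**
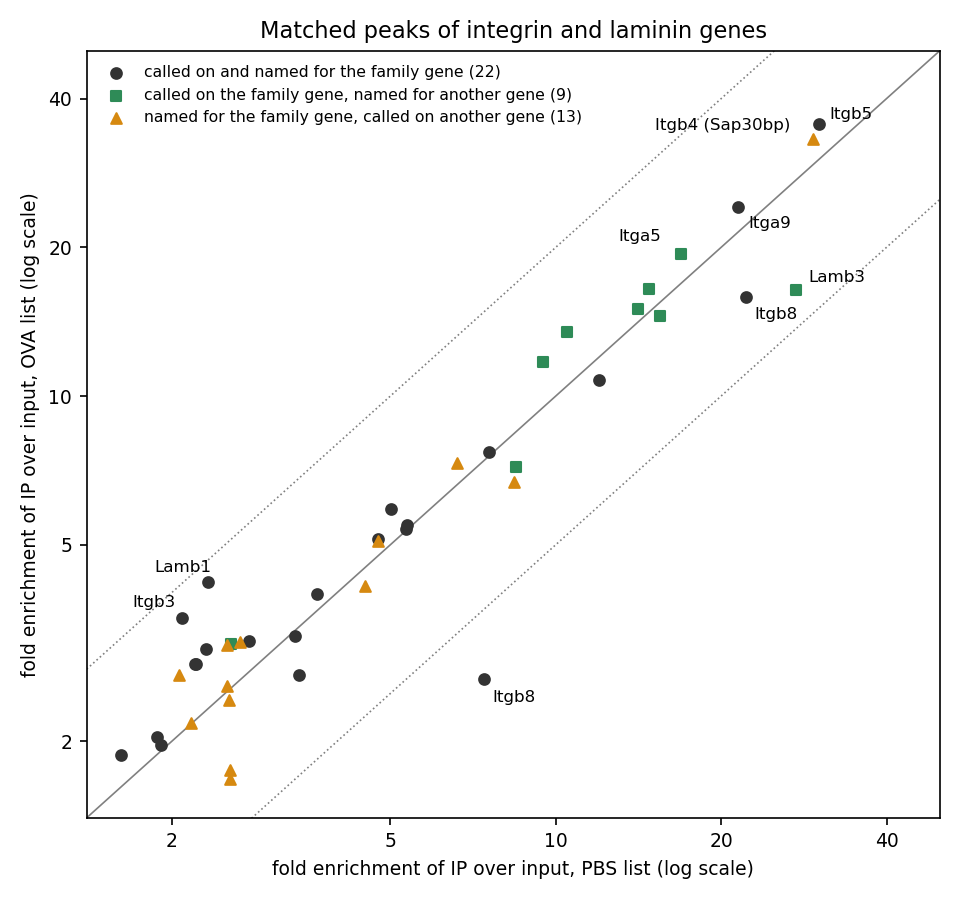
Fold enrichment of IP over input of matched peaks in the PBS list (x axis, log scale) and the OVA list (y axis, log scale), 1 point a pair, for peaks named for or called on an integrin or laminin gene. The solid line marks equal values and the dotted lines a 2-fold difference, which 1 pair, in Itgb8, passes.

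Among the laminin alpha chains, which carry the sites that cells bind, only Lama2 and Lama4 had a peak called on them. Lama2, the chain of muscle and nerve basement membrane, had 1 peak, in the OVA list, at chr10:27054642-27070285, annotated to exon 41 of 65 of a transcript. Its fold enrichment was 2.31 and its log10 p -9.88, and it covered 181 bp of exon within its span. Lama4, the chain of vessel walls, had a peak in the 5′ UTR at 2.87 with OVA and 2.21 with PBS. A second Lama4 peak, at chr10:39057586-39057646 in an exon, was in the OVA list only, with a fold enrichment of 7.08 and a log10 p of -7.48. The other chains, Lama1, Lama3 and Lama5, had no peak of their own in either list. A peak inside the Lama3 span was called on and named for Gm29201, at 13.3 with OVA and 12.3 with PBS. Lama5 is the broadly made chain of adult epithelium and endothelium, and Lama3 that of the laminin under airway epithelium.

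The beta chains Lamb1 and Lamb3 were in both lists, and Lamb2, the chain of mature vessel and synapse basement membranes, in neither. Lamb1, the widely made chain, had a 3′ UTR peak at 4.2 with OVA and 2.33 with PBS, the largest ratio towards OVA among the named pairs. A second Lamb1 peak, on exon 30 of 34 in the PBS list, was among the weakest of that list, with a fold enrichment of 1.3 and a log10 FDR of -1.01, above the 0.05 level. Lamb3, a chain of the laminin that anchors epithelium, had a 3′ UTR peak at 3.19 and 2.77 in the OVA and PBS lists. Its stronger peak was annotated as 5′ UTR, ran from upstream of the RefSeq gene over its first bases, and was named for the predicted gene Gm37650. This peak had a fold enrichment of 16.4 and a log10 p of -35 in the OVA list and 27.4 and -16.5 in the PBS list, so the higher enrichment went with the weaker p value.

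Lamc1, the common gamma chain, had a 3′ UTR peak at 3.98 with OVA and 3.67 with PBS. It also had a 61 bp OVA peak without a partner, at chr1:153229166-153229226 in a 3′ UTR, with a fold enrichment of 1.86 and a log10 p of -6.56. The 1 peak named for Lamc3, at chr2:31887293-31887413 in the PBS list, had a fold enrichment of 9.87 and a log10 p of -3.14. It overlapped the start of Lamc3 but was called on Gm13441, a gene with a transcript over the same bases, so the lists do not say which RNA carried it.

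Of the collagen-binding alpha subunits, Itga1, Itga10 and Itga11 had a peak of their own in both lists and Itga2 in neither. Itga1, the collagen receptor subunit of smooth muscle and of resident T cells, had its strongest peak in the 3′ UTR, named for Gm47776, at 14.5 with OVA and 15.5 with PBS. At its start a 5′ UTR peak had 5.13 with OVA and 4.75 with PBS, and an overlapping peak was called on the predicted gene Gm49395, so that the name Itga1 stands on 2 peaks in each list. A pair of weaker Itga1 peaks, named for Gm47776 and Pelo, were in the OVA list only, at 1.63 and 2.80. Pelo, a gene of ribosome rescue, lies inside Itga1 and had peaks of its own. Itga10, a cartilage collagen receptor subunit, had a 3′ UTR peak at 5.9 and 5.02, while a peak at 2.18 and 2.17 with its name was called on the predicted gene Gm42957. Itga11, a fibroblast collagen receptor subunit, had 1 peak, named for Gm7653, at 7.19 and 8.47.

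The laminin-binding subunits Itga3 and Itga6, which hold epithelium to its basement membrane, had peaks in both lists, and Itga7, the muscle subunit, had none. Itga3 had a 5′ UTR peak at 7.7 with OVA and 7.55 with PBS. Its 3′ UTR peak, named for Pdk2, stood higher, at 13.5 and 10.5, and the OVA peak also overlapped a smaller PBS peak at 3.27. Itga6 had a 3′ UTR peak at 10.8 and 12. For these 3 pairs the log10 p was nearer 0 in the OVA list, at -291, -678 and -1170 beside -401, -889 and -1570 in the PBS list.

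Of the subunits that bind RGD, Itga5, Itga8 and Itgav had 1 peak each in both lists, in the 3′ UTR. Itga5, the fibronectin receptor subunit, had 19.4 with OVA and 16.9 with PBS, under the name Zfp385a. Itga8, a subunit of mesenchymal and smooth muscle cells, had 15.0 and 14.1, under the name Gm37701. Itgav, which pairs with several beta subunits to activate TGF-beta, stood lower, at 2.73 and 3.41. For Itga5 the log10 p was -3110 with OVA and -1760 with PBS, and for Itga8 it was -907 and -2980, so the order of the lists differed between these genes while both enrichments were slightly higher in the OVA list.

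Itga9 and Itga4 encode related subunits that bind tenascin, VCAM-1 and other ligands of inflamed tissue. The 3′ UTR peak of Itga9 was among the 3 highest of the named OVA peaks, at chr9:118897382-118898938, with a fold enrichment of 24.1 and a log10 p of -803. Its PBS partner had 21.5 and the same log10 p. Itga4, the subunit that lymphocytes and eosinophils use to leave the blood, had a 3′ UTR peak in both lists, at 16.5 and 14.8, named for Gm22606. The peak that bore the name Itga4 was another one, in the OVA list only, at chr2:79257616-79257795 on exon 2 of 2 of a short transcript, with a fold enrichment of 8.60 and a log10 p of -7.88. Itga4 was thus in the OVA list only by name, and in both lists by the gene on which peaks were called.

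Matched peaks of the leukocyte subunits Itgal, Itgax and Itgam had fold enrichments under the median of each list, unlike the matched Itga4 peak above. Itgal, the LFA-1 subunit of lymphocytes and other leukocytes, had a 3′ UTR peak at 5.47 with OVA and 5.37 with PBS. Itgax (CD11c), a marker of dendritic cells and alveolar macrophages, had 3.26 and 3.35 in its 3′ UTR. Itgam (CD11b), carried by granulocytes and macrophages, had 3.15 and 2.56 there, under the name Gm49368, and a second, weaker OVA peak at 2.31. Itgad had no peak. Away from these pairs, Itgal had an OVA peak at chr7:127330399-127330549 in a 3′ UTR with a fold enrichment of 2.84 and a log10 p of -4.09. In the PBS list it had a 5′ UTR peak at chr7:127296350-127296410, at 2.02 with a log10 p of -3.08, and a peak over exon 1 at chr7:127296470-127297436, at 1.43 with a log10 p of -3.32. All 3 were lower than the median of their list.

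The matched peaks of these 3 leukocyte subunits had lower p values in the OVA list. The log10 p was -266 with OVA and -132 with PBS for Itgal, -41.1 and -8.99 for Itgam, and -1950 and -105 for Itgax. All 3 were at least 2 times as far below 0 in the OVA list, by 2.02, 4.57 and 18.6 times. The peaks of these pairs were not of equal extent. Their exonic widths with OVA and PBS were 330 and 300 bp for Itgal, 270 and 61 bp for Itgam, and 389 and 329 bp for Itgax. Among all 21951 matched pairs with finite values, 17.6% were at least 2 times as far below 0 with OVA and 10.9% with PBS. Among the 35 named pairs, 6 were so with OVA and 0 with PBS, and the median ratio of log10 p was 0.981, so by name the share towards OVA was near that of all pairs. Among the 31 pairs called on the family, 9 were so in the OVA list and 2, in Itga8 and Itga11, in the PBS list. The trait was not limited to these 3 subunits. The other 6 of the 9 were in Itga4 (2.25), also a subunit of leukocytes, and in Itgb3 (4.50), Itgb8 (3.17), Itgb1 (2.40 and 2.07) and Lamb3 (2.12). The fold enrichments of the Itgal, Itgam and Itgax pairs were at 1.02, 1.23 and 0.973 of OVA over PBS. A log10 p falls with both the enrichment and the number of reads under a peak. The lists give no read numbers, and what reads or peak width add to these p values was not tested.

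Some other leukocyte markers also had lower p values in the OVA list. Of the 12 matched peaks, on 9 of 15 marker genes, 11 had the lower log10 p in the OVA list, 7 at least 2-fold and up to 94.1 times for Ccr3, the eotaxin receptor of eosinophils. The remaining pair, 1 of 3 in the macrophage receptor gene Csf1r, went the other way, from -29.9 with PBS to -2.3 with OVA, a ratio of 0.0769, while the other Csf1r pairs had ratios of 44.4 and 1.04. Their median OVA over PBS ratio of fold enrichment was 1.02. Itgam and Itgax are themselves on that list and hold 2 of the 7 pairs, while Cd8a had peaks in the OVA list only and S100a8 in the PBS list only. The matched peaks of 6 endothelial and 7 epithelial markers had median ratios of log10 p of 0.841 and 0.930, beside 1.11 for all matched pairs. Of the 14 endothelial pairs, 3 were at least 2-fold towards OVA and 3 towards PBS, and of the 11 epithelial pairs also 3 and 3. All 3 epithelial pairs towards PBS were in Nkx2-1, at 0.00226, 0.00566 and 0.342. The pairs at 0.00226 and 0.00566 use the same PBS peak as another Nkx2-1 pair, at 0.772. The matched peaks of mesenchyme and smooth muscle had a median ratio of 1.05. Of these 10 pairs, 3 were at least 2-fold towards OVA, up to 8.55 in Col1a1, and 0 towards PBS. What cell numbers add to these p values was not tested.

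Within the family, the beta subunits held the peak with the highest fold enrichment and the pair furthest apart. Itgb5, which pairs with alpha v and is made by epithelium and smooth muscle, had the highest fold enrichment of the named peaks in both lists. Its 3′ UTR peak, at chr16:33947847-33949189 in the OVA list, had 35.6 and a log10 p of -3900, higher than 98.5% of the fold enrichments of that list. Its PBS partner, at chr16:33947847-33949159, had 30.1 and -4110. At the other end of the gene, a 5′ UTR peak at chr16:33829665-33829844 was in the PBS list only, with a fold enrichment of 22.2 and a log10 p of -8.42. The enrichment is high and its p value modest.

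Itgb8, the subunit that activates TGF-beta on epithelial and dendritic cells, had 4 peaks in the PBS list and 2 in the OVA list. Its 3′ UTR peak had a fold enrichment of 15.9 and a log10 p of -31.4 in the OVA list and 22.2 and -9.89 in the PBS list, at chr12:119162727-119163364. On exon 10 of 14, at chr12:119170896-119170956 in the OVA list, it had 2.67 and a log10 p of -2.83, beside 7.40 and -3.43 in the PBS list, a ratio of 0.361. That pair is the 1 past 2-fold, and both of its p values are weak. In the 5′ UTR, the PBS list alone had a peak at chr12:119237903-119238083, at 15.3 with a log10 p of -4.94, and another at chr12:119238532-119238652, at 4.32 with a log10 p of -3.00, which lies 256 bp before the RefSeq gene.

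Itgb1, the partner of most alpha subunits, had 3 peaks in both lists, all of low enrichment. In the OVA list they were at 3.08, 2.04 and 2.87, from the 5′ UTR to the 3′ end, and in the PBS list at 2.31, 1.88 and 2.20. Itgb3, the subunit of platelets and of vessel cells, had 1 peak, at 3.56 with OVA and 2.09 with PBS. This peak was annotated to exon 10 of 15 of a transcript, and Itgb5 too had a peak on exon 10 of 15, at 1.97 and 1.91. With the peak on exon 10 of Itgb8, 3 beta subunits thus had a peak of low enrichment on an exon of that number in both lists, apart from the 7.40 of Itgb8 in the PBS list. Whether these exons encode the same stretch of protein was not tested.

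Itgb6, the epithelial subunit that activates TGF-beta, had a 3′ UTR peak named for Gm13567, at 11.7 with OVA and 9.48 with PBS. Itgb2, the common beta subunit of leukocyte integrins, had 1 peak, in the OVA list only and named for Pttg1ip. It lay at chr10:77565618-77565708 in the 3′ UTR, with a fold enrichment of 4.05 and a log10 p of -16.4. Besides its strong Sap30bp peak, the name Itgb4 stood on an OVA peak without a partner, at chr11:115965828-115966008, at 1.89 with a log10 p of -6.50. A peak of the same kind under the name Itgae was in the PBS list only, at chr11:73085090-73085270, at 1.88 with a log10 p of -2.70. Neither of these lies in the integrin.

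Sequence could be read only next to gene starts, from RefSeq promoter windows on GRCm38.p6, which held 23 of the 37 genes. In 3 of them, Itga1, Itga3 and Itgb5, a peak covered all of the first 50 transcribed bases of a window. For Itga3 that window begins at chr11:95076714, a start inside the RefSeq gene, whose 5′ end is at 95076844. The Itga3 peak ends at 95076801, short of that 5′ end. None of the 3 windows held GGAC, the most favoured core of the m6A motif, which 18.9% of all 32851 windows hold on the transcribed strand. They also held neither GAC nor AAC, of which 68.6% of all windows hold at least 1. The methylated base of a peak can lie elsewhere in it, and the rest of these peaks was not read here. The first 30 bases are shown for Itgb5, with the peak of the PBS list only (chr16:33829665-33829694, plus strand), and for Itga1, with a peak in both lists (chr13:115101935-115101964, minus strand), in lower case throughout as no motif was found.
Itgb5: tggcggcccgcaggagaggggggaggagaa
Itga1: gggatttggttcgtgaagcaagatcgccct

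Genes that work with integrins were in the lists to a like extent. Of 69 partner genes, 50 had a called peak with OVA and 47 with PBS, 5 in the OVA list only, 2 in the PBS list only and 17 in neither. Of the 52 with a peak, these are 9.62% and 3.85%, beside 10.8% and 7.20% of all called genes. Their 84 matched pairs had a median OVA over PBS ratio of 1.10, and 4 pairs were at least 2 times higher with OVA and 0 with PBS. These 4 pairs are 4.76%, beside 7.63% of all pairs towards OVA and 6.79% towards PBS, so such pairs were not more frequent among the partners. The basement membrane genes, such as the nidogens, perlecan, agrin and the collagen IV chains, had called peaks for 12 of 16 genes in each list, and integrin ligands for 13 of 19. The collagen IV chains Col4a1, Col4a2 and Col4a6 were among those without a peak. Genes of integrin activation had 7 of 10 with OVA and 6 with PBS, and genes of focal adhesions 16 of 20 and 14.

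Named here after their values were seen, the 4 partner pairs past 2-fold were in Tns1, Tnc, Itgb2l and Ltbp1. Tns1, which ties integrins to actin, had an exon peak at 66.7 with OVA and 8.71 with PBS. Tnc encodes tenascin C, a matrix protein of injury and airway remodelling. An exon peak of it had 17.4 with a log10 p of -495 in the OVA list and 3.9 with -13.4 in the PBS list. The other matched Tnc pair went the other way, at a ratio of 0.614. The p values of Tns1, -64.5 and -50.4, were close, and the ratios of its 4 pairs ran from 0.815 to 7.66. Itgb2l, an integrin-like gene outside the symbol rule, had 19.0 and 5.18 in an exon, with a log10 p of -18.4 and -25.0. Ltbp1, which holds latent TGF-beta in the matrix, had 4.11 and 2.02 with a log10 p of -2.94 and -3.34. In both genes the list with the lower enrichment thus had the lower p value. Of the other genes with integrin names outside the rule, Itgb3bp had a peak in both lists, at 4.11 and 5.92, and Itgbl1, Itgb1bp1 and Itgb1bp2 had none.

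Among partners found in 1 list only, which were no more frequent than over all called genes, Fermt3, the kindlin of blood cells, had an OVA peak at 15.1 with a log10 p of -10.7, and the parvins Parva, Parvb and Parvg had weak OVA peaks, between 1.48 and 2.07. Rap1b had 1 OVA peak at 1.3, and its relative Rap1a had 2 PBS peaks, at 1.85 and 3.17. Rsu1 had 1 PBS peak at 2.19. Ptk2, the focal adhesion kinase, had the highest fold enrichment among the partners of the OVA list after Tns1, at 35.1 with OVA and 27.3 with PBS.

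The tissue named in the labels was checked by its markers. Called peaks were found in both lists for 7 of 8 genes of lung epithelium, 6 of 6 of endothelium, 4 of 6 of mesenchyme and smooth muscle, 9 of 15 of leukocytes and 3 of 4 of goblet cells. Sftpc, Acta2, Siglecf, Epx and Prg2 had no called peak, which needs both RNA and methylation. Clca1, a goblet cell gene, had 1 peak, at 3.55 in the OVA list only. All 10 matched goblet cell peaks, on Muc5ac, Muc5b and Spdef, had the lower log10 p in the OVA list, by a median of 8.44 times, at a median fold enrichment ratio of 1.08.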

How the data were processed

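Lung RNA of 3 OVA and 3 PBS mice gave 6 IP and 6 input libraries. The authors trimmed reads with FASTP, aligned them with HISAT2 to the Ensembl mouse genome, found peaks by exomePeak and assigned genes by ChIPseeker. The deposit holds 1 list per group, and how replicates were combined is not given in the sources used here. Fold enrichment, as deposited by the authors, is a ratio or fold, IP divided by input. The log10 p and log10 FDR deposited by the authors are a score for each peak.

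List starts were found to count from 0 (649 OVA starts lie 1 base before a transcript start, 20 on it), and all positions are given counted from 1. Of peaks called on RefSeq protein-coding genes, 97.7% of OVA and 97.8% of PBS peaks overlapped that gene on GRCm38. Overlap needed 1 bp of exonic blocks. An OVA peak was paired with the PBS peak of largest overlap, so a PBS peak can serve more than 1 pair. Intervals are 95% Wilson or order-statistic intervals and cover counting error only. No read depth per peak is known. Peaks named in full were the 3 highest fold enrichments per list, those without overlap at an FDR under 0.05, pairs past 2-fold and genes with the most peaks. Peaks called on the family but named for another gene, and the partners named, were added after their values were seen. The comparison of log10 p between the lists was not planned, and the markers were planned only as a check of the tissue. The members and gene lists were chosen with earlier results of these data known. Python 3.11.15, numpy 2.4.6, pandas 2.3.3, scipy 1.17.1 and matplotlib 3.10.9 were used, and the code was tested on simulated data.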

Additional observations from a re-analysis of the deposited data

How the results depend on the processing

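No paired analysis was possible because the lists hold 1 pooled value per group and no values of single mice. Of 90 values under other settings, 73 stayed within 1.5 times of a count or within the interval of a share or median, and 17 did not. With protein-coding transcripts only, 18 OVA and 16 PBS peaks on 11 and 12 genes were left, 77.8% of the OVA peaks were in a 3′ UTR, and 1 gene had peaks in the OVA list only and 2 in the PBS list only. At an FDR under 0.001, 0 genes had peaks in the PBS list only, and 94.3% of the PBS peaks had an overlapping OVA peak. By called gene, 0 genes had peaks in the PBS list only. With identical start and end required, 9.52% of named peaks in either list were shared and 0 pairs were at least 2 times higher in the PBS list. At 1.5-fold, 2 pairs were higher with OVA and 2 with PBS, and at 3-fold 0 pairs were higher in the PBS list. Divided by the median of all pairs, the median ratio was 0.997, so the family's excess towards OVA is that of all pairs. The called-gene settings for shared peaks and ratios, and the settings that need the same called gene on both sides, were chosen after seeing the data. Peaks depend on RNA level and depth, and the lists give neither.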
